A study of Rattus norvegicus with 6 samples.

Results

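The small leucine-rich proteoglycans described here are 9 genes: Bgn (biglycan), Dcn (decorin), Aspn (asporin), Lum (lumican), Fmod (fibromodulin), Prelp, Omd (osteomodulin), Ogn (osteoglycin) and Podn (podocan). They were chosen by symbol, and each of the 9 had 1 row among the 16551 genes of the mRNA table. The list was drawn up with the difference between high glucose and control already known, so levels and differences of these 9 genes are given as a description, with counts past a threshold but no p-value for any of them.

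The study sequenced RNA of primary cells from rat dorsal root ganglia, the sensory ganglia beside the spinal cord, in a high-glucose group of 3 samples (DM1 to DM3) and a normal culture as control (control1 to control3). High glucose meant 45 mmol/L for 48 h, and the glucose content of the control medium is not stated. The labels give no genotype, strain, age or sex of the rats, and no osmotic control is named. They do not spell out DM, which was read here as the high-glucose group of the study's design. They describe the samples of each group as duplicates without naming separate cultures or animals, so the spread between samples, and every p-value, may be technical. A fixation with paraformaldehyde is part of the growth protocol, and whether it was applied to the sequenced cells is not stated. The mRNA table held 28780612 to 33108451 reads per sample.

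Small leucine-rich proteoglycans are secreted proteins with a core of leucine-rich repeats, to which sulfated sugar chains are attached in many members. They lie on collagen fibrils, where they set fibril thickness and spacing, and they bind growth factors such as TGF-beta and cell surface receptors. In a peripheral nerve and its ganglion they are known as products of the fibroblasts of the connective tissue sheaths. The family is divided into classes by sequence: class I holds biglycan, decorin and asporin, class II lumican, fibromodulin, PRELP and osteomodulin, class III osteoglycin, and class V podocan.

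The labels name nerve cells. The genes with the most reads were the collagens Col1a1 and Col3a1, with 5572862 and 4084021 reads over the 6 samples. These genes supplied most of a summed fibroblast marker level. That level, over 16 measured markers outside the family, was 53122.7 to 55702.1 CPM (reads scaled to library size) in the high-glucose samples and 58567.0 to 60839.7 CPM in control. The median log2 difference of 20 sensory neuron markers was -1.71. Uchl1, Syt1 and Avil contributed most to their summed level. That level was 73.6 to 75.8 CPM in high glucose and 92.1 to 96.6 CPM in control. Tac1, the substance P gene, had 0 reads in the 3 high-glucose samples, but only 7 over the 3 control samples. Other neuron markers also rested on few reads, such as Isl1 (2 in high glucose, 7 in control), Pou4f1 (1 and 7) and Scn10a (3 and 16). Of the neuron markers, 10 were lower and 1, Syt1, was higher in high glucose (limma, adjusted p under 0.05). Of all genes tested, 25.5% were called lower and 24.9% higher. In bulk RNA, fewer cells of a type and less RNA per cell cannot be told apart.

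The 9 genes took 0.638% ± 0.019 of all mRNA reads in high glucose and 0.511% ± 0.0024 in control (SD, n = 3 each). Biglycan supplied most of these reads. Bgn made up 81.1% ± 0.63 of the family's reads in high glucose and 92.9% ± 0.43 in control, and Lum 13.6% ± 0.71 in high glucose and 3.52% ± 0.17 in control. Without Bgn, the other 8 genes took 0.121% ± 0.00064 of mRNA reads in high glucose and 0.0361% ± 0.0021 in control. These shares count reads and are not corrected for transcript length, so they do not rank the genes by number of molecules. They divide by total reads, whereas the log2 CPM values below use scaled libraries. With libraries scaled to total reads, the log2 difference of Bgn was 0.12 in place of 0.01.

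Of the 9 genes, 6 passed the limma test as higher in high glucose (Aspn, Lum, Omd, Dcn, Prelp and Podn), 0 passed as lower and 3 did not pass (Fmod, Ogn and Bgn). At an unadjusted p under 0.05, 7 were higher and 0 lower, beside 9219 of all 16551 genes in either direction. Among all genes tested, 50.5% were called, 24.9% as higher and 25.5% as lower. Because the list was chosen with this difference known, nothing is read from the comparison of these shares. In 7 of the 9 genes every high-glucose sample lay above every control sample, which was so for 28.7% of all genes (57.6% did not overlap in either direction), and in Bgn and Ogn the groups overlapped. The median log2 difference was 0.82 for the 9 genes and 0.012 for all genes. Each difference below is high glucose minus control in log2 CPM, with the standard error (SE) of the limma fit to 3 samples per group. That SE is moderated, meaning that the variance of each gene is drawn towards the trend over all genes. For genes with a wide spread between samples, such as Ogn and Aspn, it is smaller than their own samples alone would give. With 1 variance prior shared by all genes, it was 1.25 in place of 0.78 for Ogn, and 0.55 in place of 0.36 for Aspn.

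**Figure D1:**
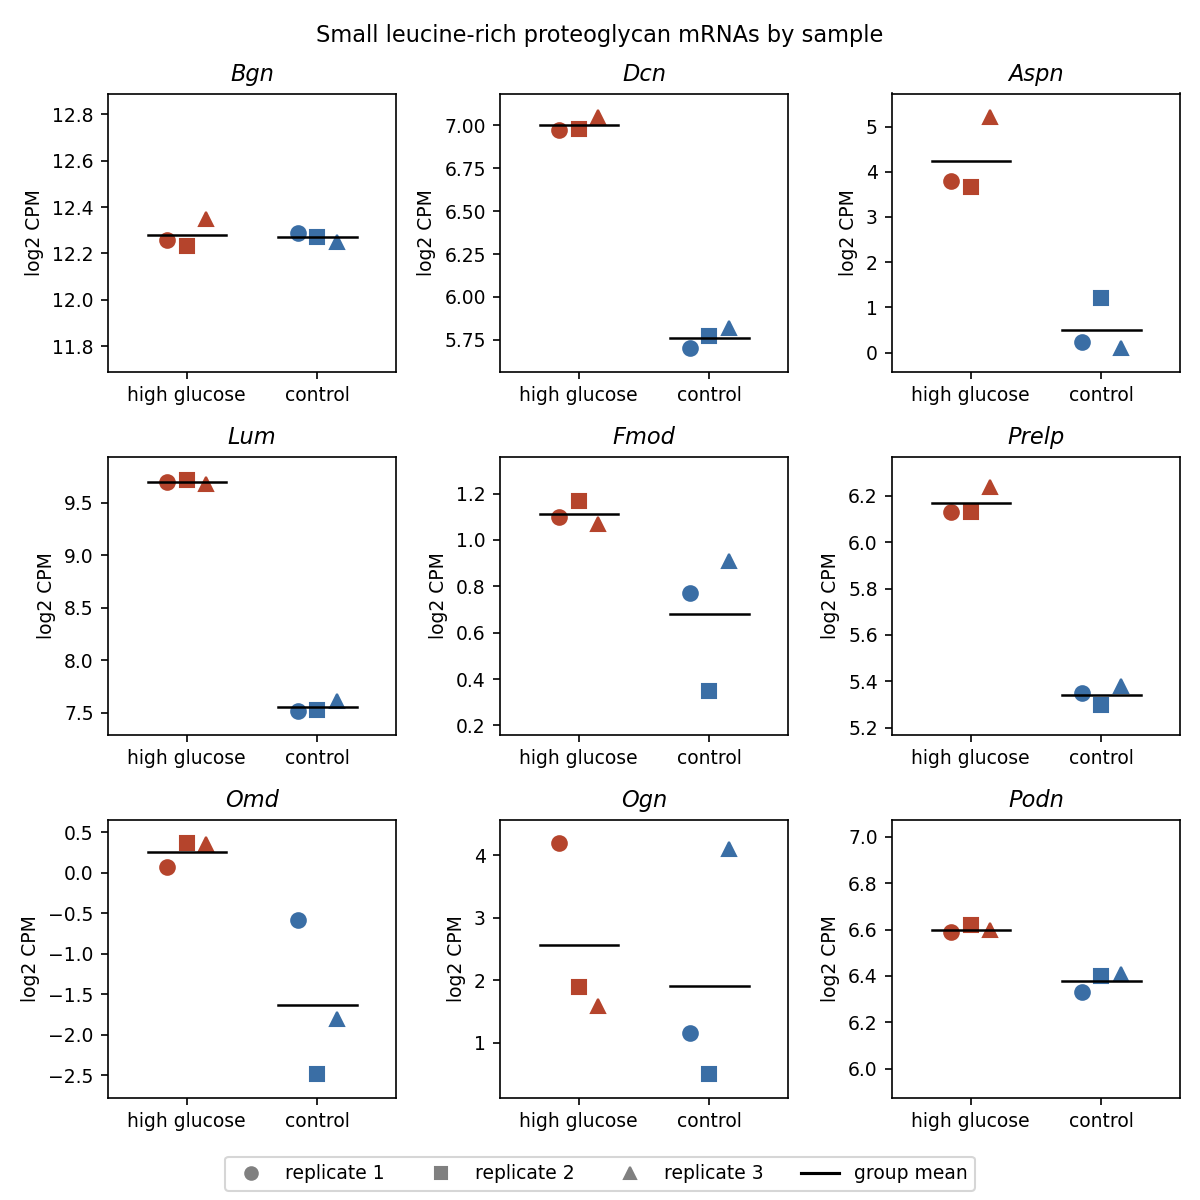
Log2 CPM (vertical axis, a separate range in each panel) of the 9 genes in the 3 high-glucose samples (left in each panel) and the 3 control samples (right), with lines at the group means. Lum, Dcn, Prelp and Podn showed tight, separate groups, Bgn overlapped near 12.3, and in Ogn high glucose replicate 1 (4.20) and control replicate 3 (4.10) stood above the other samples.

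Within class I the 3 genes differed widely from each other. Bgn (ENSRNOG00000055962) encodes biglycan, which carries chondroitin or dermatan sulfate chains and, when released from the matrix, is known to engage Toll-like receptors. Its levels were 12.26, 12.23 and 12.35 log2 CPM in high glucose, against 12.29, 12.27 and 12.25 in control. The samples of both groups were interleaved, and the difference was 0.01 ± 0.03. This value depends on scaling: it was 0.42 ± 0.01 after quantile normalization and 0.12 ± 0.02 with libraries scaled to their total reads, and it passed the threshold under both, whereas it was -0.03 without high glucose replicate 3.

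Dcn (ENSRNOG00000004554) encodes decorin, which coats type I collagen fibrils and binds TGF-beta. It stood at 6.97, 6.98 and 7.05 log2 CPM in high glucose, against 5.70, 5.77 and 5.82 in control. All 3 high-glucose samples were above all controls by far more than the spread within either group, and the difference was 1.23 ± 0.04, or 2.35-fold. In reads, this was 12198 over the 3 high-glucose samples and 4796 over the 3 control samples.

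Aspn (ENSRNOG00000015410) encodes asporin, which has a stretch of aspartate near its start, binds collagen and is known to restrain TGF-beta signalling in cartilage. Its levels were 3.79, 3.67 and 5.22 log2 CPM in high glucose, against 0.23, 1.21 and 0.09 in control. The groups did not overlap, but high glucose replicate 3 stood well above replicates 1 and 2, with 1272 reads against 415 and 399. The difference was 3.72 ± 0.36, a 13.2-fold higher level that ranked as number 22 of all 16551 genes by size of increase. It was 3.22 without high glucose replicate 3.

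A row named Aspnl1 (ENSRNOG00000050431) bears on this value. The RefSeq gene table of the newer assembly GRCr8 lists Aspnl1 only as another name of Aspn, whereas the deposited table holds both rows. Aspnl1 had 172, 186 and 194 reads in high glucose, and 23, 16 and 171 in control. Control replicate 3 was thus as high as the high-glucose samples in Aspnl1, while it was the lowest sample of all in Aspn. With the reads of both rows added, there were 587, 585 and 1466 reads in high glucose and 55, 87 and 202 in control. The groups remained apart, with a difference of 2.89 ± 0.38 in place of 3.72. How reads were divided between the rows was not tested, and the size of the Aspn difference is uncertain to that extent.

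Lum (ENSRNOG00000004610), of class II, encodes lumican, a keratan sulfate proteoglycan best known from the cornea and from skin, where it orders collagen fibrils. It reached 9.70, 9.72 and 9.68 log2 CPM in high glucose, against 7.51, 7.52 and 7.61 in control. The difference was 2.15 ± 0.03, or 4.45-fold, on 79378 reads in high glucose and 16518 in control. The replicates of each group lay close together, far inside the gap between the groups. The difference was 2.32 after quantile normalization. Set against Dcn in the same samples, Lum was 2.70 ± 0.063 log2 units above it in high glucose and 1.79 ± 0.033 in control (SD, n = 3 each), so Lum was higher by 0.92 more than Dcn was. A gap between genes also contains their lengths, and only its change between groups is comparable.

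The other class II genes were higher to differing degrees. Prelp (ENSRNOG00000003120), whose basic end binds heparan sulfate and which anchors basement membrane to connective tissue, had 6.13, 6.13 and 6.24 log2 CPM in high glucose, against 5.35, 5.30 and 5.38 in control. All high-glucose samples exceeded all controls, with a difference of 0.82 ± 0.04, or 1.77-fold. Fmod (ENSRNOG00000003183) encodes fibromodulin, which binds collagen at a site it shares with lumican. Its levels were 1.10, 1.17 and 1.07 log2 CPM in high glucose, against 0.77, 0.35 and 0.91 in control. The groups did not overlap, but the gap between the nearest samples was small beside the spread of the controls, and the difference of 0.44 ± 0.19 rested on 205 reads in high glucose and 141 in control.

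Omd (ENSRNOG00000039560) encodes osteomodulin, an acidic member known from bone matrix. It was scarce, with 31, 40 and 43 reads in high glucose, against 18, 5 and 8 in control. The levels were 0.07, 0.37 and 0.35 log2 CPM in high glucose, and -0.59, -2.49 and -1.80 in control. Control replicate 1 was the nearest to the high-glucose samples, and the difference was 1.89 ± 0.42. With so few reads its size depended on the samples used, from 1.46 without control replicate 2 to 2.41 without control replicate 1.

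Podn (ENSRNOG00000011413), of class V, encodes podocan, a collagen-binding member described in smooth muscle. It stood at 6.59, 6.62 and 6.60 log2 CPM in high glucose, against 6.33, 6.40 and 6.41 in control. The groups were separate by a narrow margin, with a difference of 0.22 ± 0.03, or 1.17-fold. With libraries scaled to total reads it was 0.34 ± 0.03. That scaling moved the median difference of all genes by 0.11.

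Ogn (ENSRNOG00000047786), of class III, encodes osteoglycin, also called mimecan, a matrix protein of bone, cornea and vessel wall. It departed in a single sample of each group. The reads were 551, 116 and 102 in high glucose, against 61, 43 and 507 in control. On the log2 CPM scale this gave 4.20, 1.89 and 1.59 in high glucose, and 1.15, 0.49 and 4.10 in control. High glucose replicate 1 and control replicate 3 were alike and far above the other 4 samples, so that the groups overlapped, and the difference was 0.65 ± 0.78.

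The sign and size of the Ogn difference changed with the samples used. Without high glucose replicate 1 it was -0.17 ± 0.77, and without control replicate 3 it was 1.74 ± 0.58. It was also near 0 without control replicate 2 (-0.06 ± 0.79), and 0.26 ± 0.88 without control replicate 1. Without high glucose replicate 2 or 3 it was 0.98 ± 0.85 or 1.13 ± 0.87. With high glucose replicate 1 and control replicate 3 both left out, an alternative chosen after the values were seen, it was 0.92 ± 0.25. In that subset each remaining high-glucose sample was above each remaining control sample. The pooled SD within groups was 1.69, against a median of 0.134 for the 1115 genes within 0.5 log2 CPM of its mean, of which 5, Ogn included, had an SD as large. By rank, Ogn had the 89th largest SD of all 16551 genes, whereas Dcn, Prelp, Bgn, Lum and Podn ranked between 11516 and 14647.

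The genes with the closest pattern to Ogn over the 6 samples, by Pearson correlation of log2 CPM among 12246 genes with a mean of at least 0, were Ankra2 (0.973), Slc17a9 (0.968), AABR07055919.1 (0.964), Eif2b2 (0.955) and Snx15 (0.954). These are descriptions over 6 points. The swing of these genes was smaller: Ankra2 spanned 1.82 log2 units, Slc17a9 1.03 and Snx15 0.12. Besides Ogn, only LOC103692173 of the 12247 genes with a mean of at least 0 stood at least 1 log2 unit higher in both high glucose replicate 1 and control replicate 3 than in the other samples of the group. It was singled out after its values were seen, which were 2.27, -0.19 and -0.31 log2 CPM in high glucose, and -0.18, 0.43 and 2.01 in control. For Bgn, the member with the most reads, the closest genes were Crebbp (0.984), Epc2 (0.977), Proser1 (0.977), Rrbp1 (0.968) and Nucb1 (0.964), all of which varied by at most 0.32 log2 units.

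**Figure D2:**
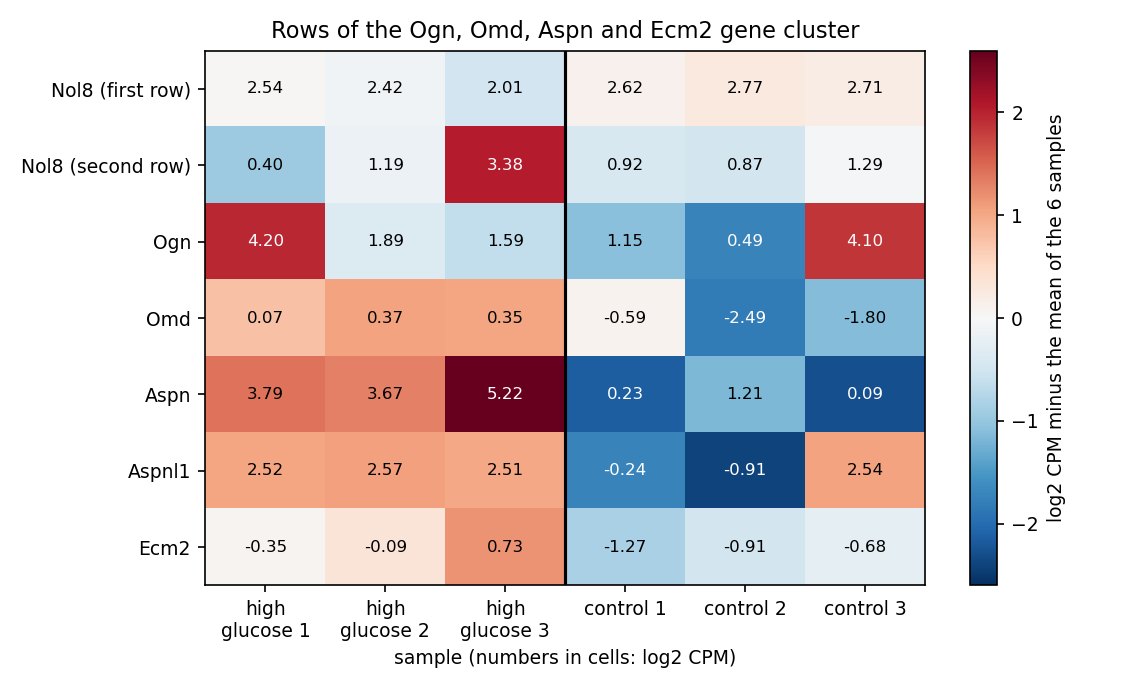
Log2 CPM (numbers in the cells) of the rows of the Ogn, Omd, Aspn and Ecm2 gene cluster and of the neighbouring Nol8, in the 3 high-glucose samples (left) and 3 control samples (right). Colour gives the deviation from the mean of the 6 samples. The departing cells lie in different samples in different rows, such as high glucose 1 and control 3 in Ogn, high glucose 3 in Aspn and the lower Nol8 row, and control 3 in Aspnl1.

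The family lies in gene clusters, and neighbours were compared by their order in the GRCr8 gene table, whose assembly differs from the Rnor_6.0 build of the counts. On chromosome 17, Ogn, Omd, Aspn and Ecm2 lie in this order inside the span of Cenpp, with Rpl6-ps6 between Aspn and Ecm2. Cenpp itself had no value under that symbol, and the strand setting of the counting was not given in the sources used here, so reads of overlapping genes cannot be told apart. The high sample was not the same along this cluster. Ogn was highest in high glucose replicate 1, whereas Aspn and Ecm2 were both highest in high glucose replicate 3. Ecm2 stood at -0.35, -0.09 and 0.73 log2 CPM in high glucose. Nol8, a gene beside the cluster, had 2 rows, of which ENSRNOG00000046968, singled out after its values were seen, stood at 0.40, 1.19 and 3.38 log2 CPM in high glucose and 0.92, 0.87 and 1.29 in control.

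On chromosome 7 the order is Dcn, Lum, Kera and Epyc. Dcn, Lum and Epyc were all higher in high glucose, and Kera had no value under that symbol. Lum (2.15 ± 0.03) and Epyc (2.11 ± 0.07) had differences that lay within their errors of each other, and Dcn had a lower one (1.23 ± 0.04). On chromosome 13, Optc, Prelp and Fmod are in a row, with differences of 0.78 ± 0.35, 0.82 ± 0.04 and 0.44 ± 0.19. Btg2, the gene after Fmod, had a difference of 0.28 ± 0.04. In GRCr8 both Prelp and Fmod overlap 1 gene with a LOC name each, and so does Dcn. On chromosome 17, Aspn overlaps LOC108348523 besides Cenpp.

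Since Lum, Aspn and Ogn carry the largest read change, the largest fold and the departing samples, the 250 bases before their RefSeq starts are given here (GRCr8, gene strand, 5′ to 3′). The Lum window is chr7:34245456-34245705 on the plus strand, the Aspn window chr17:15310470-15310719 on the minus strand and the Ogn window chr17:15258996-15259245 on the minus strand. Capitals mark matches on either strand to 5 motifs. The TATA box was searched as TATAAA and the GC box of promoters as GGGCGG. The core letters bound by factors of the NFAT family were searched as TGGAAA, the Smad element as CAGAC, and the site of the AP-1 factors Fos and Jun as TGANTCA.
Lum: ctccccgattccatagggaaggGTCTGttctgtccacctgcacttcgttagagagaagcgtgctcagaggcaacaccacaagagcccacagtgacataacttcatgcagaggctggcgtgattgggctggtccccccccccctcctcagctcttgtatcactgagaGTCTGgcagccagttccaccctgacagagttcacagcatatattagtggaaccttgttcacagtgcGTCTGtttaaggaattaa
Aspn: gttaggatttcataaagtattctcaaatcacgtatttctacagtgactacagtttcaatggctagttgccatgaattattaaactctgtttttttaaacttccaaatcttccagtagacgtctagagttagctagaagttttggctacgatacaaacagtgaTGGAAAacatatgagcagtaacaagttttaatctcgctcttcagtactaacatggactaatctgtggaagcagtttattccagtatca
Ogn: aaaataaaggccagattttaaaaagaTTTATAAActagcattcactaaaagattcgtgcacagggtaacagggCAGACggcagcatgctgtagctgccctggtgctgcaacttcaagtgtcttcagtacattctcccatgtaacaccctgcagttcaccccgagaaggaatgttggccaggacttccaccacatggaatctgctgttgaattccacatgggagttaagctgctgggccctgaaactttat
The Lum window held CAGAC at 3 places, all on the reverse strand and read here as GTCTG, and no other motif. The Aspn window held 1 match, TGGAAA beginning 88 bases before the start. The Ogn window held 1 CAGAC, and TATAAA on both strands in overlapping letters 222 bases before the start. Of all 33469 windows of the same length, 42.9% held CAGAC, 19.7% TGGAAA and 12.9% TATAAA, so such matches are common. TGANTCA, in 6.34% of all windows, was in none of the 6 member windows searched (Lum, Aspn, Ogn, Omd, Fmod and Podn). GGGCGG was in 2 of them, Podn and Fmod, and in 30.5% of all. The Podn window was 77.6% G and C and the Aspn window 34.8%, around a median of 51.2%. Dcn, Bgn and Prelp had no entry.

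The rest of the family was tested in the same fit, which called 24.9% of all genes higher and 25.5% lower. Of 8 measured genes outside the list of 9, 4 rose, 2 fell and 2 were not called (median 0.70, and 0.22 under either filter on low values). Epyc, the dermatan sulfate proteoglycan epiphycan of growth cartilage, had 5.79, 5.83 and 5.78 log2 CPM in high glucose, against 3.60, 3.58 and 3.88 in control. It rose 4.33-fold (2.11 ± 0.07, limma adjusted p = 2.54e-11), clear of every control sample. Nyx, nyctalopin of the retina, rose by 2.49 ± 0.28 (limma adjusted p = 5.43e-06) on 175 reads in high glucose and 28 in control. Podnl1, the relative of podocan, rose by 0.63 ± 0.10 (limma adjusted p = 0.000113).

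Ecm2, a class I relative in the chromosome 17 cluster, rose by 1.05 ± 0.33 (limma adjusted p = 0.0165) on 108 reads in high glucose and 45 in control. Its call ended without high glucose replicate 3 (adjusted p = 0.0979 by limma) and without control replicate 1 (0.0552). It also ended when 1 variance prior was shared by all genes (0.0566). Tsku, tsukushi, a secreted modulator of BMP and Wnt signals, fell 1.32-fold (-0.40 ± 0.04, limma adjusted p = 1.57e-06). Chadl, chondroadherin-like, fell by 1.38 ± 0.40 on the log2 scale (limma adjusted p = 0.0111), on 17 reads in high glucose and 45 in control, and did not pass by limma without control replicate 3 (adjusted p = 0.0514). Optc, opticin of the vitreous (0.78 ± 0.35, limma adjusted p = 0.0788), and Chad, chondroadherin (-0.18 ± 0.28, limma adjusted p = 0.624), did not pass.

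**Figure D3:**
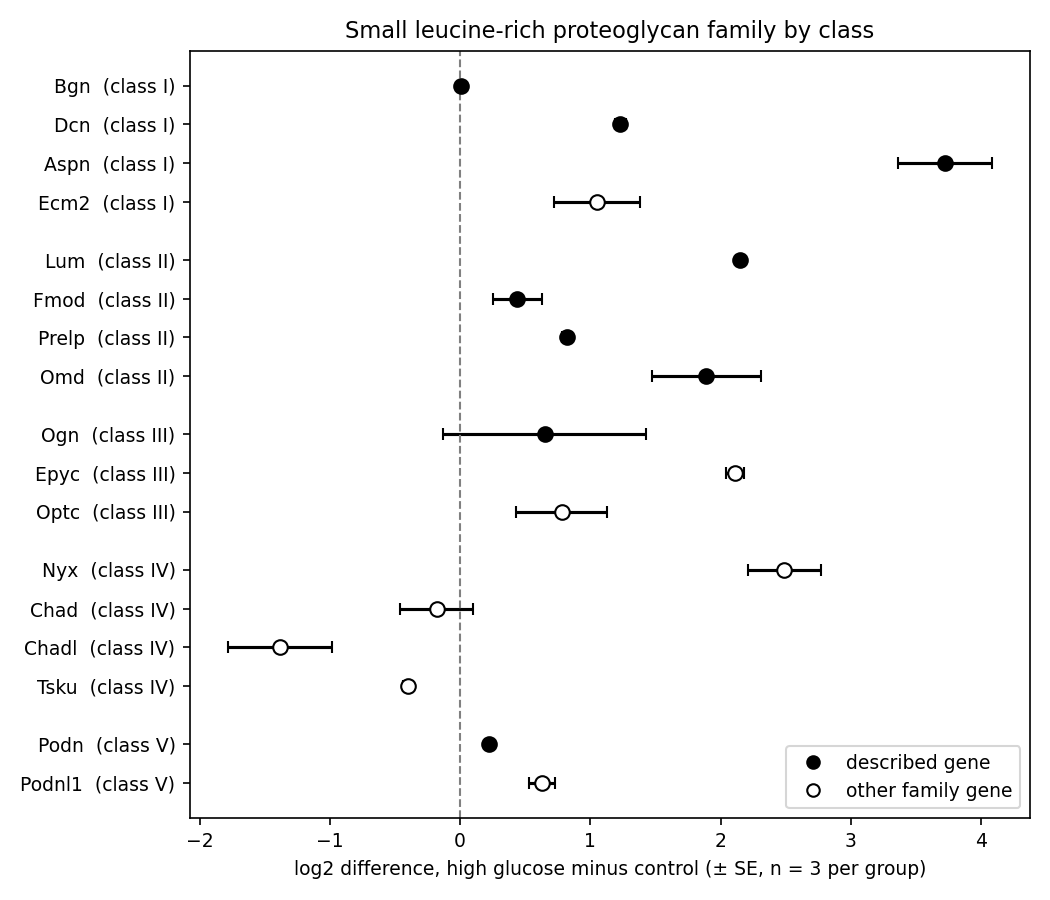
Log2 difference, high glucose minus control, for 17 measured genes of the family, grouped by class. Bars are the moderated SE of the limma fit (n = 3 per group), which is smaller than the samples alone would give for genes with a wide spread, such as Ogn. Filled points are the 9 described genes and open points the other 8; Aspn lies farthest to the right at 3.72, Bgn at 0.01, and Chadl farthest to the left at -1.38.

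The sugar chains are built by shared enzymes. A list of 25 genes makes the linkage region and the chondroitin and dermatan sulfate chains, which members such as biglycan carry. Of these 25 genes, 11 rose, 6 fell and 8 were not called, beside 24.9% of all genes called higher and 25.5% lower. The list median was 0.03 beside 0.012 for all genes. Csgalnact1, which starts chondroitin chains, rose 1.73-fold (0.79 ± 0.03, limma adjusted p = 2.54e-11), and Chst12, a chondroitin 4-sulfotransferase, 1.77-fold (0.82 ± 0.06, limma adjusted p = 4.16e-08). Ugdh, which makes the UDP-glucuronate that all such chains need, fell 1.66-fold (-0.73 ± 0.03, limma adjusted p = 4.10e-10). Chst11, another chondroitin 4-sulfotransferase, fell 1.49-fold (-0.58 ± 0.05, limma adjusted p = 5.49e-07). The members of the list thus moved in both directions.

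Several class II members carry keratan sulfate or sulfated tyrosines. A list of 15 genes covered keratan chains, tyrosine sulfation and the supply of activated sulfate and sugars. Of these, 9 rose, 3 fell and 3 were not called (median 0.41), beside 24.9% of all genes called higher and 25.5% lower. The tyrosine sulfotransferases moved apart: Tpst1 rose 1.72-fold (0.78 ± 0.05, limma adjusted p = 2.56e-08) and Tpst2 fell (-0.59 ± 0.03, limma adjusted p = 7.11e-09). Slc35b2, the Golgi transporter of activated sulfate, rose 1.41-fold (0.49 ± 0.04, limma adjusted p = 9.41e-08). Chst5, an N-acetylglucosamine 6-sulfotransferase, fell 2.65-fold (-1.41 ± 0.23, limma adjusted p = 0.000149) from a low level.

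Collagens are the main ligands of the family. Of 12 measured fibrillar and fibril-associated chains, 4 rose and 6 fell, beside 24.9% of all genes called higher and 25.5% lower. Their median was -0.14, which was 0.00 after quantile normalization and -0.03 with scaling to total reads. Col14a1, a fibril-associated collagen that decorin binds, rose 1.67-fold (0.74 ± 0.03, limma adjusted p = 1.79e-10). Col3a1 rose by 0.28 ± 0.01 (limma adjusted p = 3.27e-09), but its difference was 0.00 after quantile normalization and was not called. Col5a1 and Col5a2, chains of type V collagen inside the fibrils, had differences of -0.70 ± 0.03 and -0.36 ± 0.02 (limma adjusted p = 7.21e-11 and 4.77e-10).

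Of 16 enzymes that process procollagen and proteoglycan precursors or cut the matrix, 9 rose, 6 fell and 1 was not called (median 0.12). The shares of all genes were 24.9% called higher and 25.5% called lower. Mmp2, a gelatinase, rose 1.90-fold (0.92 ± 0.02, limma adjusted p = 2.32e-13), and Lox, which cross-links collagen, 1.65-fold (0.72 ± 0.02, limma adjusted p = 7.58e-13). Adamts14, a procollagen N-proteinase, and Adamts1, which cleaves large proteoglycans, fell 2.40-fold (-1.27 ± 0.05, limma adjusted p = 2.01e-10) and 2.12-fold (-1.08 ± 0.02, limma adjusted p = 4.75e-13).

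The next list holds growth factors that members of the family bind. The 13 in the table comprised 3 that rose, 9 that fell and 1 not called (median -0.52), beside 25.5% of all genes called lower. Tgfb3, a ligand held by decorin, fibromodulin and biglycan, had 9.13, 9.12 and 9.17 log2 CPM in high glucose, against 10.65, 10.63 and 10.66 in control, and fell 2.84-fold (-1.51 ± 0.02, limma adjusted p = 1.80e-15). Vegfa, the vascular growth factor, fell 2.63-fold (-1.39 ± 0.03, limma adjusted p = 1.10e-12). Igf1, insulin-like growth factor, rose 3.91-fold (1.97 ± 0.05, limma adjusted p = 1.31e-12), and Bmp4, a bone morphogenetic protein, 2.17-fold (1.12 ± 0.05, limma adjusted p = 1.37e-09).

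Of 15 receptors known to bind members of the family, 3 rose, 8 fell and 4 were not called (median -0.31). The shares of all genes were again 24.9% called higher and 25.5% called lower. Egfr, which decorin binds and down-regulates, rose 1.52-fold (0.60 ± 0.03, limma adjusted p = 2.91e-10), and Lrp6, a Wnt co-receptor, 1.43-fold (0.51 ± 0.02, limma adjusted p = 1.02e-10). Itgb1, the beta-1 integrin chain, and Cd44 fell 1.72-fold and 1.56-fold (-0.78 ± 0.02 and -0.64 ± 0.02, limma adjusted p = 8.34e-13 and 1.49e-11). The Toll-like receptors of biglycan, Tlr2 (0.54 ± 0.28) and Tlr4 (0.08 ± 0.06), were among those that did not pass (limma adjusted p = 0.128 and 0.296).

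**Figure D4:**
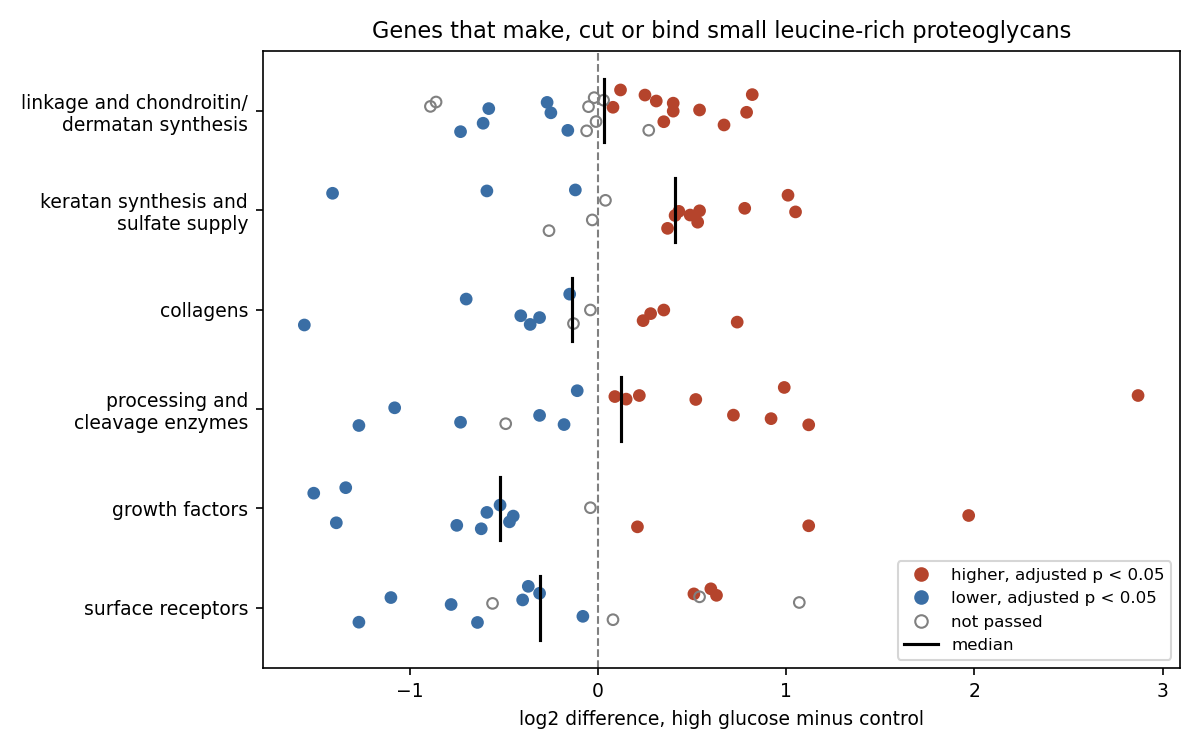
Log2 difference, high glucose minus control (horizontal axis), of each measured gene in 6 lists of genes that make, cut or bind the proteoglycans. Filled points have a limma adjusted p under 0.05, open points do not, and black lines are list medians, which run from -0.52 (growth factors) to 0.41 (keratan synthesis and sulfate supply).

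Markers of cells that could make these proteoglycans moved in the same comparison, in which 24.9% of all genes were called higher and 25.5% lower. Of the 16 fibroblast markers outside the family, 8 rose, 7 fell and 1 was not called (median 0.13), and their summed level was lower in high glucose, as given above. Of 16 tendon, cartilage and bone markers, 7 rose and 4 fell, with summed levels of 268.4 to 271.5 CPM in high glucose and 260.8 to 271.9 CPM in control. Of 9 perineurial and endoneurial markers, 5 rose and 2 fell, with 148.1 to 152.5 CPM in high glucose and 123 to 128.3 CPM in control. Slc2a1 supplied most of this sum, at 6.77, 6.76 and 6.80 log2 CPM in high glucose and 6.06, 6.08 and 6.12 in control. Sox9, the next in level, went the other way, at 4.32, 4.31 and 4.37 log2 CPM in high glucose and 5.11, 5.32 and 5.17 in control. Schwann cell markers fell in 11 of 11 cases, to 615 to 660.1 CPM in high glucose, against 1050 to 1093 CPM in control. Of 12 mural and smooth muscle markers 4 rose and 7 fell, with 7670 to 7728 CPM in high glucose and 14213.1 to 14330.7 CPM in control. Acta2 and Tagln supplied most of the mural sum.

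Satellite glia markers rose in 3 of 7 cases and fell in 2 (1326 to 1363 CPM in high glucose, 1036 to 1043 CPM in control). Gja1 supplied most of that sum, at 10.23, 10.22 and 10.25 log2 CPM in high glucose and 9.91, 9.91 and 9.90 in control. Macrophage markers rose in 1 of 10 and fell in 4 (20.4 to 21.8 CPM in high glucose, 21.4 to 22.1 CPM in control), and endothelial markers rose in 1 of 9 and fell in 1 (81.8 to 83.8 CPM in high glucose, 95.6 to 99.4 CPM in control). The endothelial marker that fell was Ptprb, at 0.66, 1.09 and 0.75 log2 CPM in high glucose and 3.82, 3.87 and 3.95 in control. Outside the neuron list, none of the measured markers was at 0 reads in all samples of a group. The part of cell makeup in the proteoglycan differences was not tested.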

How the data were processed

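The authors deposited a table of mRNA genes with one log2 value per gene and sample, voom-normalized per the file name. The submitters' processing notes list the build Rnor_6.0 and, as tools, HISAT2 2.1.0, featureCounts 1.6.0 and fastp 0.19.4; settings, annotation version and strand are not given in the sources used here. The values are log2 CPM, and whole reads (within 0.01) were worked back from 100% of them: 28780612 to 33108451 per sample, with scaling factors of 1.03 to 1.05 in high glucose and 0.959 to 0.964 in control. Every gene had reads in at least 3 of 6 samples.

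Tests used limma 3.58.1 in R 4.3.3 on the deposited log2 values: group as the term, a mean-variance trend, two-sided, Benjamini-Hochberg adjustment over 16551 genes and a threshold of 0.05. The test was checked on simulated data. Replicates differed by more than counting error, with a mean chi-square per gene of 2.91 to 4.62 within groups, so each was counted once. Fold changes are on the log2 scale with 0.5 read added, which understates changes of scarce genes.

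The members and the 16 lists (7 of partner genes, 9 of cell types) were chosen with earlier results of these data known. All members and all measured other family genes are named, and of each other partner list up to 2 genes per direction with the smallest p. Older symbols were matched through RefSeq names. Alternatives were another variance prior, filters, scalings, added reads, weights, each sample left out, and a replicate block. The long non-coding table holds no member and was not used. Figures were drawn with matplotlib 3.10.9.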

Additional observations from a re-analysis of the deposited data

How the results depend on the processing

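The count of the 9 proteoglycans past the threshold was 6, between 5 and 8 over all alternatives run, and 0 were lower under each. It was 5 under both filters on low values, which removed Omd, 7 after quantile normalization, 8 with libraries scaled to total reads, 8 without control replicate 3, and 7 with high glucose replicate 1 and control replicate 3 both left out. Over the samples left out in turn it ran from 6 to 8. The number of genes called was 8354, between 6885 and 8779, and scaling to total reads changed the share of calls that were higher to 67.6%, against 49.4%. Among the other family genes, 2 rose and 1 fell under each filter on low values (a mean log2 value of at least 0, or the lowest 25% left out), which removed scarce genes, and 1 fell with high glucose replicate 1 and control replicate 3 both left out. With each sample left out in turn, 1 to 2 of them fell and 3 to 5 rose. Without the 10 most abundant genes in the denominator, the 9 genes took 0.721% of reads in high glucose and 0.588% in control. The other partner list counts stayed within 1.5 times under the alternatives run.

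Both groups use the replicate numbers 1 to 3, and nothing in the labels ties them. Same-numbered samples had correlations of their deviations of -0.0921, -0.0433 and 0.0255, and differently numbered samples had -0.0714 to 0.116. With 3 samples per group, such values cannot settle whether same-numbered samples were prepared together. A fit with a replicate block called 8052 genes, 3968 higher and 4084 lower, and 6 of the 9 proteoglycans. Depth limits Omd, Fmod, Chadl, Nyx and Ecm2, which rest on few reads.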

Other observations

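Genes that stood higher in a single sample of a group, as Ogn, Aspn and Aspnl1 did, were counted for the 3 samples in which these rows departed. Of 12247 genes with a mean log2 CPM of at least 0, 16 stood at least 1 log2 unit higher in high glucose replicate 1 than in replicates 2 and 3, 19 did so in high glucose replicate 3, and 22 in control replicate 3. Together these were 50 genes, and 22 of them (44%) carried clone or LOC names, against 736 (6.01%) of all 12247. Symbols that stand on more than 1 row made up 4 of the 50 (8%), against 142 (1.16%) of all. These departures were chosen after the values were seen, and whether near-identical gene copies in the build divided reads among such rows was not tested.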
